A study of Mus musculus with 30 samples.

Results

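The genes described here are 60 genes that work in mitosis and cytokinesis, of 46113 genes counted in the series. They were taken by symbol from a fixed list, and all 60 were found. They were grouped by role into transcription factors (2 genes), entry regulators and kinases (12), chromosome structure (7), the chromosomal passenger complex (4), kinetochore (8), spindle checkpoint (5), spindle (10), anaphase (4) and cytokinesis (8). RNA was measured in 30 libraries, each from 100 cells sorted from C57BL/6 mouse bone marrow, the mice being 8 to 10 weeks of age. Haematopoietic stem cells (HSCs) carried the surface phenotype CD150+ CD48- EPCR+ and lacked lineage markers. Haematopoietic progenitor cells (HPCs) differed from them by carrying CD48. In the 5-FU experiment, HSCs came from untreated mice (4 libraries) and from mice that had received 5-fluorouracil (5-FU) 6 days (4) or 10 days (6) before. 5-FU is a pyrimidine analogue, toxic to cells that are dividing. In the culture experiment, all HSCs came from untreated mice, taken directly (uncultured, 4) or after 1 day in culture (4), and the labels do not name the medium or its cytokines. The CD48 experiment held CD48- HSCs (4) and CD48+ HPCs (4), both 10 days after 5-FU, with no untreated cells among them. The labels do not say whether replicates came from separate animals, so p-values measure only the spread between these libraries.

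In mitosis a cell condenses its replicated chromosomes, attaches them to a spindle of microtubules, separates the sister chromatids at anaphase and divides its body at cytokinesis. Cyclin B with Cdk1 starts the process, and the anaphase-promoting complex ends it by marking cyclin B and securin for destruction. Most of these genes are transcribed in G2 and M phase, under MuvB-containing complexes with B-Myb and FoxM1 that bind promoters through the cell cycle genes homology region (CHR), often beside CCAAT boxes bound by NF-Y. Adult HSCs in undisturbed marrow are mostly quiescent, and they divide after myeloablation or when placed in culture.

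The 120 bases before the RefSeq start of 7 genes are printed (GRCm38.p6, 5′ to 3′ on the gene's strand) because they show promoter letters that many of the 60 genes share. Capitals mark the CHR core TTTGAA, its variant TTTAAA and the CCAAT box, each on either strand. Cdk1, Mki67, Top2a, Cdc20 and Kif11 hold TTTGAA, Plk1 holds TTTAAA, and Tacc3 is shown as 1 of the genes with none of the 3. The windows are chr10:69352913-69353032 (minus strand) for Cdk1, chr7:122159315-122159434 (plus strand) for Plk1, chr7:135716380-135716499 (minus strand) for Mki67 and chr11:99024190-99024309 (minus strand) for Top2a. They are chr4:118437344-118437463 (minus strand) for Cdc20, chr19:37376262-37376381 (plus strand) for Kif11 and chr5:33658008-33658127 (plus strand) for Tacc3.
Cdk1: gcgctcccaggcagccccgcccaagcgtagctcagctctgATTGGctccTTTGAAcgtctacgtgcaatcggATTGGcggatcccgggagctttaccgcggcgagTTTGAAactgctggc
Plk1: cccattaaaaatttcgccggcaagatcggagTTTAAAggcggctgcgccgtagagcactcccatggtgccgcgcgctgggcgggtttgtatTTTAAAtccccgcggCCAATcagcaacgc
Mki67: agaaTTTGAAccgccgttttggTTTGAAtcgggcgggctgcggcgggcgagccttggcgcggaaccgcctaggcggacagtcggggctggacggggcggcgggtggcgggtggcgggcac
Top2a: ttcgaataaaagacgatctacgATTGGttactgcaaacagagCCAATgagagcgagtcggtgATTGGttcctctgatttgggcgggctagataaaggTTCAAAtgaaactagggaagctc
Cdc20: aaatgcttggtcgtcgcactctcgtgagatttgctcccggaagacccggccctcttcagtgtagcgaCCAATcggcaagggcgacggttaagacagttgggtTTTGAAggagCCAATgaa
Kif11: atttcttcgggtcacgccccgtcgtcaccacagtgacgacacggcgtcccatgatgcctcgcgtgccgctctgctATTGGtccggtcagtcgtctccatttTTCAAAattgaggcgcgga
Tacc3: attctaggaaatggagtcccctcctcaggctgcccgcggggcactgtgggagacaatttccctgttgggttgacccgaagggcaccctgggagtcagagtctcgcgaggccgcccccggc

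Promoter windows of 300 bases (250 before and 50 after the start) were found for 51 of the 60 genes, 3 of them with a second start. TTTGAA stood in the windows of 34 of the 51 genes (66.7%), against 20.2% of all 27025 genes with a window and 14.8% of the 10324 that were also tested at day 6. CCAAT likewise stood in 34 of 51, against 41.1% and 43.3%. Both were present in 29 of the 51 (56.9%), against 7.97% of all genes. TTTAAA was found in 10 (19.6%, against 14.9%), among them Ccnb1, whose window has no TTTGAA. Both strands were searched, a CCAAT box shared 1 base with another match in 1 gene, and a match describes the letters, not binding. The windows of 10 genes held none of the 3, namely Cit, Knstrn, Mad2l1, Melk, Mybl2, Ncaph, Nuf2, Nusap1, Pttg1 and Tacc3. Of these 10, all but Pttg1 were higher at day 6, after culture and in HPCs, as were the genes with matches. For 10 of the 51 genes, Pttg1 and Mybl2 among them, the gene in the deposited files begins more than 50 bases before the RefSeq start used here. The distance is 267 bases for Pttg1, 311 for Mybl2, 432 for Cit, 512 for Cdc25b, 527 for Anln and 3852 for Kif2c. The windows of these genes do not hold the start in the files. Among 619 other tested genes with both motifs, 31.3% were higher at day 6, against 25.9% of all 10273 other tested genes with a window.

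Expression is given as CPM, exon reads in 1 M after scaling library sizes, and changes as log2 fold changes ± SE from edgeR's quasi-likelihood test, with Benjamini-Hochberg adjustment over all genes tested. A gene was called at an adjusted p under 0.05. Libraries held 5.21 to 12.2 M exon reads with 14158 to 15406 genes detected. Cd48 went with the labels, at 51.4 ± 4.74 CPM (SD, n = 4) in HPCs against 3.07 ± 1.79 in CD48- HSCs. Procr, which encodes EPCR, was at 74.1 ± 6.68 CPM in untreated, 58.1 ± 9.53 in uncultured and 18.5 ± 1.64 in cultured HSCs. It was at 86.2 ± 16.7 CPM in CD48- HSCs and lower, at 45.8 ± 5.6, in HPCs. Slamf1, which encodes CD150, was also lower in HPCs, at 29.2 ± 1.93 CPM against 55.1 ± 9.1 in CD48- HSCs. Its level was 24.4 ± 1.67 CPM in uncultured and 12.95 ± 2.26 in cultured HSCs. The T-cell marker Cd3e was at 0 in 29 of 30 libraries. Some libraries held more transcripts of other cells. The summed CPM of 12 myeloid granule genes was 1994 in untreated replicate 3 (31.9 to 40.9 in the other untreated libraries) and 2320 and 1546 in uncultured replicates 1 and 4 (80.9 and 101 in the other uncultured libraries). The sum of 14 erythroid genes was 9584 in CD48- HSC replicate 3 (324 to 389 in the other 3), and that of 13 macrophage genes was 649 in day-6 replicate 1 (63.0 to 205 in the other 3) and 1422 in HPC replicate 3 (192 to 538 in the other 3). The sum of 9 endothelial and stromal genes was 592 in day-10 replicate 3 (198 to 235 in the other day-10 libraries). It was 475 in uncultured replicate 1 (120 to 150 in the other uncultured libraries). The sum of 14 HSC genes was 5837 to 6553 in untreated, 3638 to 3971 in day-6 and 3583 to 4850 in day-10 HSCs. It was 5249 to 5767 in uncultured, 3021 to 3318 in cultured and 4555 to 5100 in CD48- HSCs, and 2330 to 2729 in HPCs. Of the 13 tested, 5 were lower and 0 higher at day 6 (median log2 -0.20), and 4 were lower and 3 higher at day 10. Of all 12886 genes tested, 3314 were lower and 3308 higher at day 6, and 2333 were lower and 2560 higher at day 10. From untreated to day-6 HSCs, mean Kit went from 1268 to 533 CPM, Hlf from 1290 to 469 and Mecom from 473 to 535.

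Nearly all of the genes were low in HSCs of untreated mice and higher in the other groups. The summed CPM of the 60 genes was 794 to 2354 in untreated and 925 to 2725 in uncultured HSCs. It was 5137 to 6230 at day 6, 3625 to 5447 at day 10, 7036 to 8223 after 1 day of culture, 2393 to 4113 in CD48- HSCs and 6970 to 7306 in CD48+ HPCs. The mean level was highest in cultured HSCs for 40 of the 60 genes, in HPCs for 19 and in untreated HSCs for 1, Pttg1. The lowest mean was in untreated HSCs for 52 genes and in uncultured HSCs for 6, in cultured HSCs for Pttg1 and in CD48- HSCs for Bub3. Groups of different experiments are set side by side here with no test between them. In bulk libraries, a smaller share of dividing cells and less RNA of these genes in each cell cannot be told apart.

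**Figure D1:**
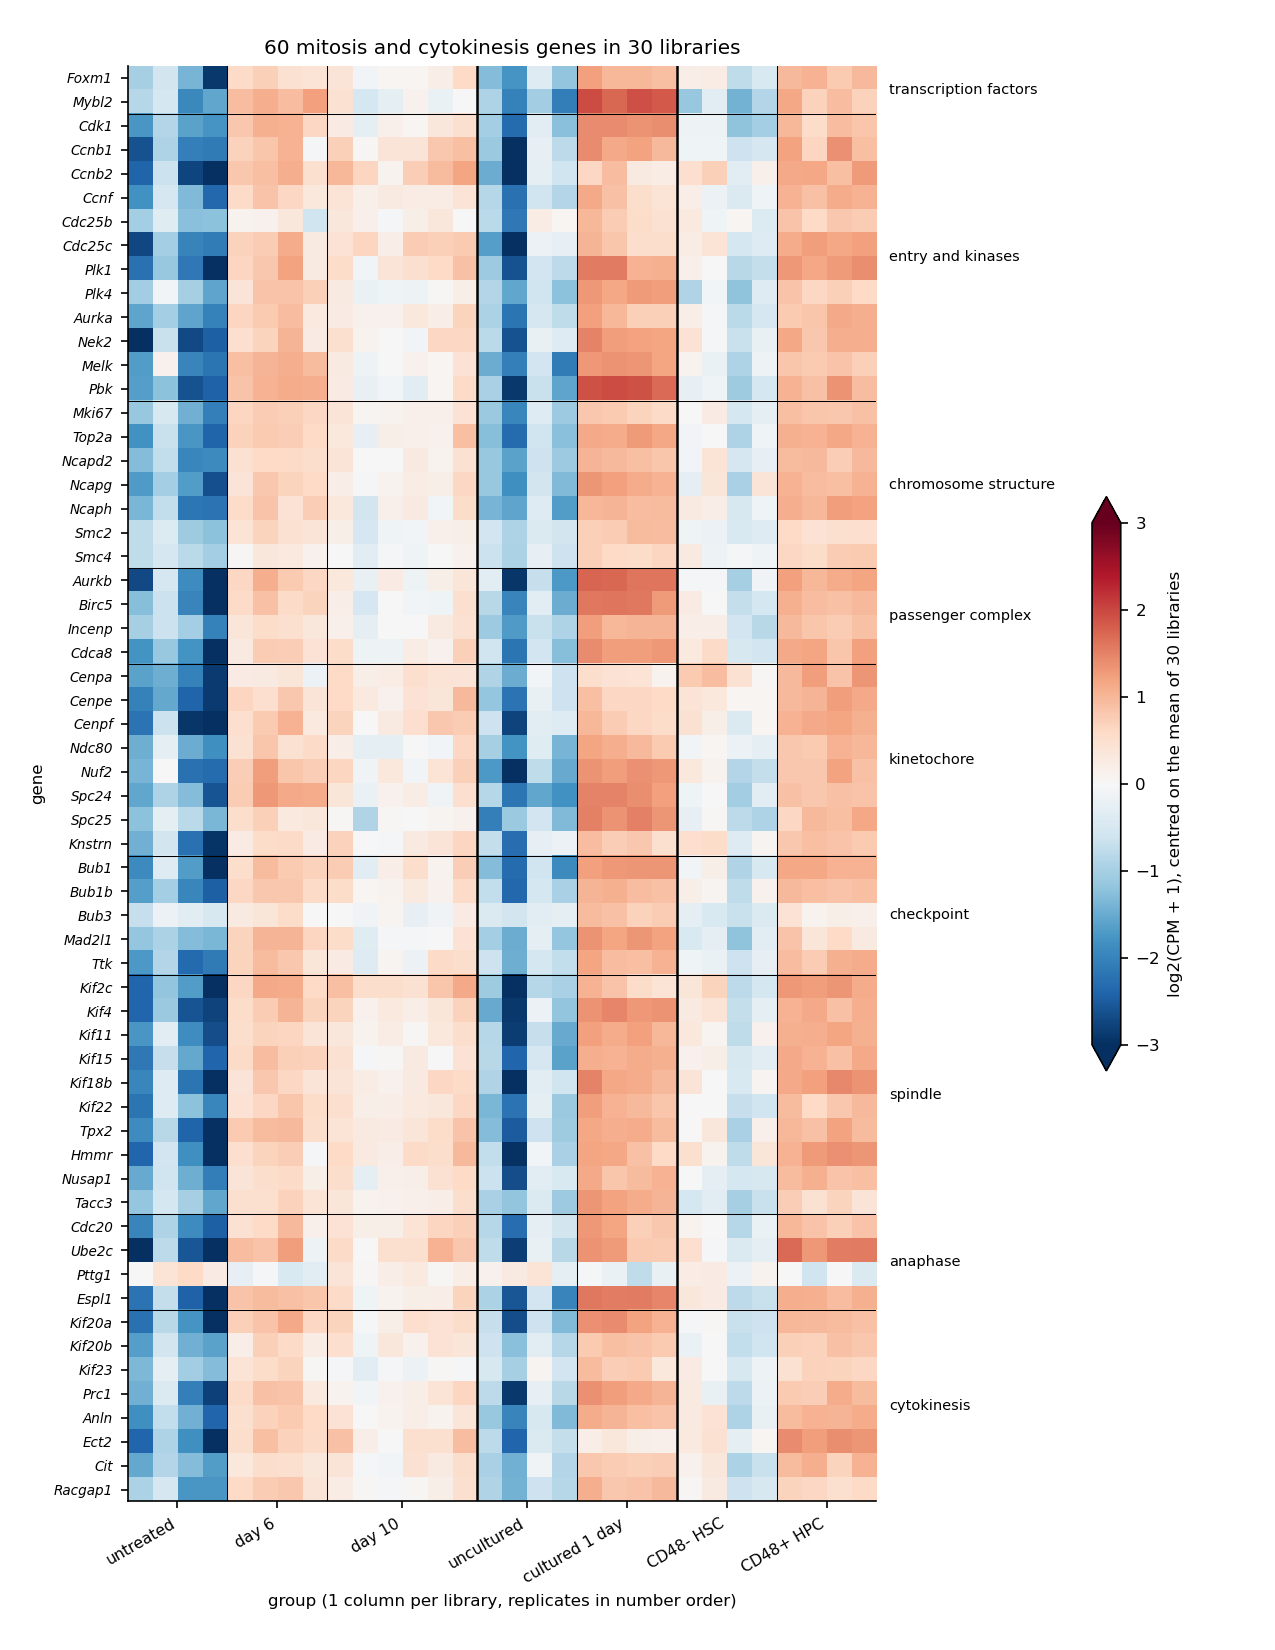
Level of the 60 genes (rows, by role) in 30 libraries (columns, by group), as log2(CPM + 1) centred on each gene's mean over all libraries, with red higher and blue lower. Untreated and uncultured HSCs are blue in nearly all rows, cultured HSCs and CD48+ HPCs are red, and Pttg1 runs against the other rows.

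At day 6 after 5-FU, 59 of the 60 genes were higher than in untreated HSCs and 1, Pttg1, was lower. Of 12886 genes tested, 25.7% were higher and 25.7% lower. The median log2 change of the 60 genes was 2.25, against -0.04 for all genes tested, and 39 of them rose by at least 2 on the log2 scale. All 4 day-6 libraries were above all 4 untreated libraries for 58 genes, against 23.9% of the genes tested, and the exceptions were Cdc25b and Pttg1. The largest rises were those of Pbk, Ube2c and Kif2c (log2 3.21, 3.13 and 3.10) and the smallest were those of Bub3, Cdc25b and Smc4 (0.72, 0.98 and 0.98). At day 10, 59 genes were still above the untreated level, with a median log2 change of 1.75 (19.9% of genes tested were higher), and Pttg1 was not called (log2 -0.15, adjusted p = 0.524). All day-10 libraries were above all untreated ones for 52 genes, against 11.9% of genes tested. The genes that overlapped at day 10 were Plk4, Melk, Smc2, Nuf2, Spc25, Bub3, Kif23 and Pttg1. Both time points were compared with the same untreated libraries. With intron reads in place of exon reads, 55 genes were higher at day 6 (14.4% of genes tested) and 49 at day 10 (10.5%). The rises of Bub3, Mad2l1, Kif22 and Ube2c were then not called at either time, nor were those of Foxm1, Cdc25b, Pbk, Birc5, Tacc3 and Kif20a at day 10. Of 8 libraries that held more transcripts of other cells, those in this fit were also left out. Plk4, Melk, Spc25 and Bub3 were then not called at day 10.

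Markers of other cells moved in the same comparisons, each list counted over its tested genes. Among all 12886 genes tested, 3314 were lower and 3308 higher at day 6, and 2333 were lower and 2560 higher at day 10. At day 6, 10 of 13 erythroid genes were lower and 1 higher (median log2 -3.88), with summed levels of 401 to 516 CPM against 2540 to 6514 in untreated HSCs, and 4 of the 14 listed were at 0 in all day-6 libraries. At day 10, 6 of the 13 were lower and 2 higher, with sums of 393 to 1583 CPM. Macrophage genes went the other way, 11 of 13 being higher at day 6 (median 1.76) and 6 of 13 at day 10 (1.61). Their sums were 47.7 to 73.6 CPM in untreated HSCs, 63.0 to 649 at day 6 and 132 to 328 at day 10, and no gene of the list was at 0 in all libraries of a 5-FU group. Of 8 megakaryocyte genes, 6 were lower at day 6 and 4 at day 10. The part of these transcripts in the changes of the 60 genes was not tested. Without those of the 8 libraries that were in the fit, 59 genes were still called at day 6.

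**Figure D2:**
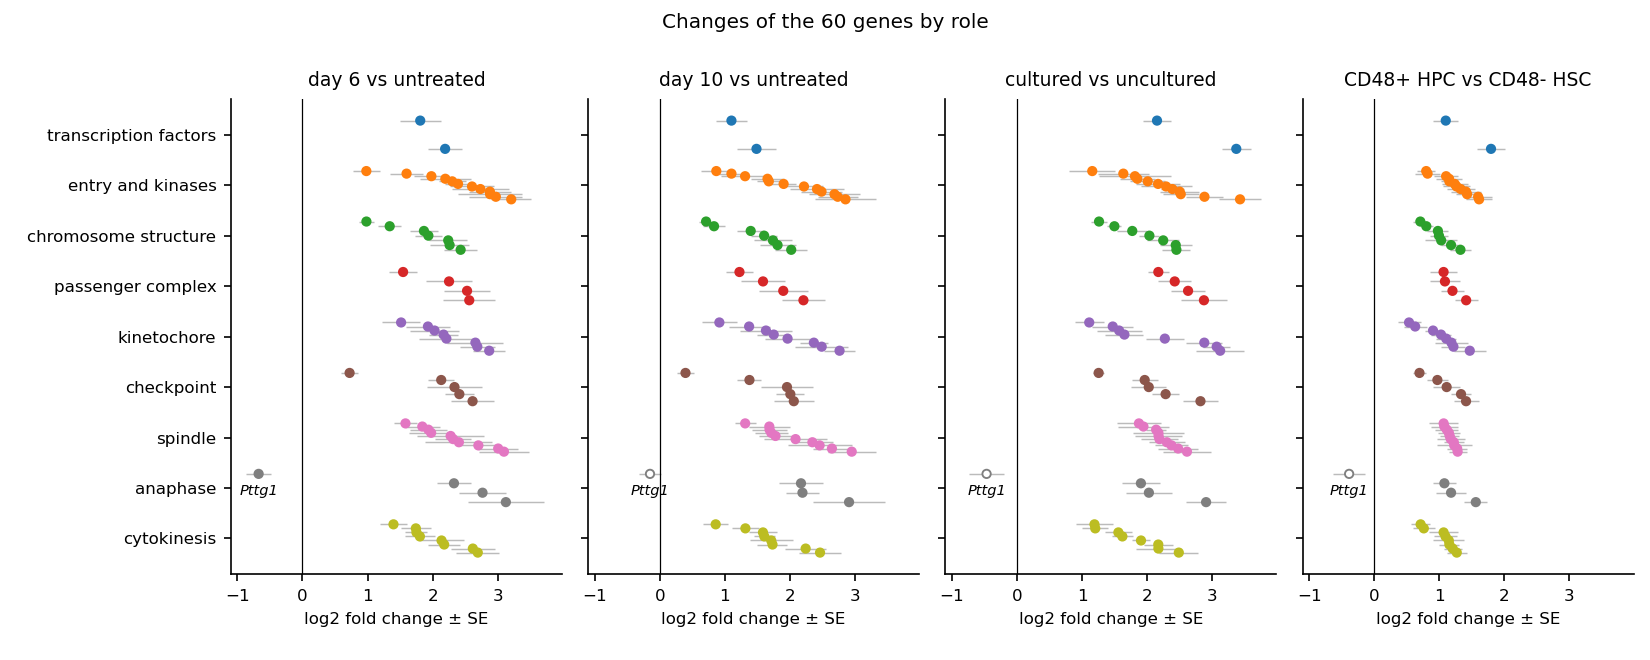
Log2 fold change ± SE (x axis) of each of the 60 genes, 1 point per gene, by role (y axis) in 4 comparisons; filled points passed an adjusted p of 0.05 and open points did not. All genes but Pttg1 lie right of 0 in each panel, and the changes in the CD48 comparison (largest 1.80) are smaller than those at day 6 (largest 3.21).

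Both transcription factors rose. Foxm1, which drives transcription of G2 and M genes (gene 14235, chromosome 6, 128362994 to 128375886, plus strand, mm10), stood at 42.9, 58.1, 32.2 and 10.7 CPM in the untreated libraries, 128, 142, 119 and 115 at day 6 and 81.1, 95 and 131 (lowest, median and highest) at day 10. The groups did not overlap with the untreated libraries, and its log2 change was 1.81 ± 0.31 (adjusted p = 0.000211) at day 6 and 1.49 ± 0.30 (adjusted p = 0.00115) at day 10. Mybl2, which encodes B-Myb, the Myb protein that joins the MuvB core, was at 33, 41.7, 15.2 and 20.1 CPM in the untreated libraries, 115, 129, 117 and 143 at day 6 and 41.8, 56.9 and 83.6 (lowest, median and highest) at day 10. Its day-10 libraries reached down to the highest untreated library within 0.1 CPM, and the changes were 2.19 ± 0.26 (adjusted p = 6.78e-06) and 1.10 ± 0.24 (adjusted p = 0.00227).

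All 12 entry regulators and kinases rose at both times, with a median log2 change of 2.5 at day 6 and 2.06 at day 10. Cdk1, the kinase that starts mitosis (gene 12534, chromosome 10, 69336635 to 69352912, minus strand), was at 18.4, 34.4, 20.4 and 18.2 CPM in the untreated libraries, 113, 135, 132 and 98.7 at day 6 and 52.5, 73.6 and 89.3 (lowest, median and highest) at day 10. Untreated replicate 2 was above the other 3 untreated libraries and below every 5-FU library, and Cdk1 rose by 2.39 ± 0.20 (adjusted p = 4.41e-07) and 1.68 ± 0.19 (adjusted p = 1.44e-05). Ccnb1, a cyclin B that activates Cdk1, was at 4.5, 16.7, 7.23 and 6.73 CPM in the untreated libraries, 53.8, 59.1, 68.7 and 31.5 at day 6 and 33.4, 49.1 and 62.1 (lowest, median and highest) at day 10, a change of 2.61 ± 0.33 (adjusted p = 1.34e-05) and 2.49 ± 0.32 (adjusted p = 3.73e-05). Ccnb2, the other B-type cyclin, was at 9.77, 35.3, 7.41 and 2.01 CPM in the untreated libraries, 97.7, 104, 119.8 and 78.3 at day 6 and 59.9, 101 and 127 (lowest, median and highest) at day 10. It rose by 2.88 ± 0.49 (adjusted p = 0.000178) and 2.86 ± 0.47 (adjusted p = 0.000285), and untreated replicate 4 held 14 reads of it. Both cyclins had their lowest day-6 value in replicate 4.

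Plk1, a kinase of mitotic entry and spindle assembly, was at 9.46, 21.4, 10.2 and 2.01 CPM in the untreated libraries, 76, 86.5, 113 and 59 at day 6 and 45.7, 69.7 and 90.1 (lowest, median and highest) at day 10. No untreated library reached the lowest 5-FU library, and the changes were 2.97 ± 0.41 (adjusted p = 2.43e-05) and 2.69 ± 0.39 (adjusted p = 0.000101). Aurka, the centrosomal Aurora kinase, was at 9.15, 13.9, 9.08 and 6.45 CPM in the untreated libraries, 46.6, 51, 56.1 and 35.9 at day 6 and 31.9, 34.1 and 47 (lowest, median and highest) at day 10, with changes of 2.30 ± 0.21 (adjusted p = 6.53e-07) and 1.90 ± 0.19 (adjusted p = 6.41e-06). Cdc25b, a phosphatase that removes the inhibitory phosphates of Cdk1, was at 31, 49.3, 26.3 and 26.6 CPM in the untreated libraries, 68.8, 70.3, 81.4 and 42.1 at day 6 and 61.3, 71.5 and 80.9 (lowest, median and highest) at day 10. Here day-6 replicate 4 lay below untreated replicate 2, and the changes were among the smallest, 0.98 ± 0.21 (adjusted p = 0.00102) and 1.10 ± 0.19 (adjusted p = 0.000466). With the uncultured HSCs as control in place of the untreated ones, Cdc25b was not called at either time (log2 0.45, adjusted p = 0.189 at day 6 and log2 0.58, adjusted p = 0.0819 at day 10). The other 6 genes of the group rose by 1.60 (Plk4, which starts centriole copying) to 3.21 (Pbk, a mitotic kinase) at day 6. Pbk was at 4.19, 5.89, 1.67 and 2.01 CPM in the untreated and 28.2, 32.2, 34 and 33.6 in the day-6 libraries.

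The 7 genes of chromosome structure rose at both times, with medians of 1.94 and 1.61. Mki67, which coats mitotic chromosomes and marks cycling cells (gene 17345, chromosome 7, 135689788 to 135716409, minus strand), was at 170.4, 269, 138 and 90.1 CPM in the untreated libraries, 589.8, 640.2, 622 and 582 at day 6 and 397, 417 and 507 (lowest, median and highest) at day 10. The lowest day-10 library was above the highest untreated one, and Mki67 rose by 1.87 ± 0.22 (adjusted p = 6.91e-06) and 1.40 ± 0.21 (adjusted p = 0.000121). Top2a, the topoisomerase that untangles sister chromatids, was at 57, 128, 59.9 and 37.7 CPM in the untreated libraries, 328, 355, 342 and 309.6 at day 6 and 171, 229 and 381 (lowest, median and highest) at day 10, changes of 2.24 ± 0.30 (adjusted p = 1.75e-05) and 1.81 ± 0.28 (adjusted p = 0.000158). The condensin subunits, which compact chromosomes, differed in size of change. Ncapg, Ncaph and Ncapd2, which belong to condensin I, rose by 2.43, 2.26 and 1.94 at day 6, and the core subunits Smc2 and Smc4, shared by both condensins, rose by 1.34 and 0.98. Smc4 was at 48.4, 58.1, 46.3 and 39.8 CPM in the untreated libraries, 84.5, 105, 101 and 89.5 at day 6 and 64.6, 81.1 and 89.7 (lowest, median and highest) at day 10, and its changes were 0.98 ± 0.12 (adjusted p = 9.78e-06) and 0.71 ± 0.11 (adjusted p = 0.000200). The differences between subunits were not tested.

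All 4 genes of the chromosomal passenger complex, which corrects attachments at centromeres and then moves to the cell's midzone, rose. Its kinase Aurkb was at 6.67, 33.9, 12.4 and 5.16 CPM in the untreated libraries, 76.3, 105, 84.3 and 76 at day 6 and 42.1, 56.8 and 62.7 (lowest, median and highest) at day 10. Untreated replicate 2 was the highest untreated library and lay below all 5-FU libraries, and the changes were 2.56 ± 0.40 (adjusted p = 7.63e-05) and 1.90 ± 0.37 (adjusted p = 0.00107). Birc5, which encodes survivin, was at 14.6, 23.2, 8.52 and 3.58 CPM in the untreated libraries, 55.4, 68, 54.7 and 59.3 at day 6 and 25.4, 35.8 and 51.5 (lowest, median and highest) at day 10, changes of 2.25 ± 0.36 (adjusted p = 9.09e-05) and 1.59 ± 0.33 (adjusted p = 0.00179). The scaffold Incenp and borealin (Cdca8) rose by 1.55 and 2.53 at day 6 and by 1.23 and 2.21 at day 10.

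The 8 kinetochore genes rose at both times (medians 2.19 and 1.86). Cenpe, a kinesin that carries chromosomes to the spindle equator, was at 8.37, 12.3, 6.3 and 4.3 CPM in the untreated libraries, 58.7, 53.8, 66 and 49.4 at day 6 and 41.2, 49.7 and 74 (lowest, median and highest) at day 10. Its groups were far apart, with changes of 2.87 ± 0.25 (adjusted p = 5.26e-07) and 2.76 ± 0.24 (adjusted p = 2.01e-06). Ndc80, the microtubule-binding kinetochore subunit, was low throughout, at 3.41, 9, 3.34 and 2.44 CPM in the untreated libraries, 15.7, 20.6, 15.8 and 17 at day 6 and 9.08, 10.8 and 17.8 (lowest, median and highest) at day 10. Untreated replicate 2 lay just under the lowest day-10 library, and the changes were 1.93 ± 0.33 (adjusted p = 0.000200) and 1.37 ± 0.31 (adjusted p = 0.00315). Its partners in the same complex, Nuf2, Spc24 and Spc25, rose by 2.21, 2.69 and 1.52 at day 6. At day 10 Spc25 was at 4.81, 10.1 and 10.9 CPM (lowest, median and highest) against 3.57, 7.86, 5.19 and 3.15 in the untreated libraries. These overlapped, and its call at day 10 (log2 0.92, adjusted p = 0.0154) was lost without untreated replicate 1 (adjusted p = 0.0523) or without replicate 4 (0.0573). The centromeric histone Cenpa rose by 2.17 at day 6 and by 2.37 at day 10.

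The 5 checkpoint genes, which hold anaphase back until every chromosome is attached, rose at both times. Bub1, a checkpoint kinase, was at 6.82, 21.4, 8.15 and 2.29 CPM in the untreated libraries, 41.6, 56, 49.95 and 46.4 at day 6 and 22.2, 36.9 and 49.1 (lowest, median and highest) at day 10. The highest untreated library stayed under the lowest 5-FU library, and Bub1 rose by 2.34 ± 0.42 (adjusted p = 0.000265) and 1.96 ± 0.40 (adjusted p = 0.00132). Mad2l1, the inhibitor of Cdc20, was at 11.6, 13.7, 10.6 and 9.89 CPM in the untreated libraries, 44.3, 56.5, 56.5 and 43.6 at day 6 and 21.1, 26.8 and 40.7 (lowest, median and highest) at day 10, changes of 2.13 ± 0.20 (adjusted p = 8.86e-07) and 1.38 ± 0.18 (adjusted p = 5.67e-05). With intron reads its changes were 0.69, adjusted p = 0.137 at day 6 and 0.30, adjusted p = 0.551 at day 10. Bub3, a checkpoint protein with roles outside mitosis, moved least of the genes that rose, at 51, 73.3, 65.2 and 58.7 CPM in the untreated libraries, 99, 107, 121 and 82.6 at day 6 and 69.99, 79.4 and 97.4 (lowest, median and highest) at day 10. Its day-10 libraries overlapped the untreated ones, and the changes were 0.72 ± 0.13 (adjusted p = 0.000339) and 0.40 ± 0.12 (adjusted p = 0.0196). The day-10 call of Bub3 was lost without untreated replicate 1 (adjusted p = 0.0750) or without replicate 4 (0.0585). Per kb of exon, Bub3 had the highest level of the 60 genes in untreated HSCs (28.5 ± 4.35 CPM per kb), close to the condensin subunit Ncapd2 (25.3 ± 10.8). At day 6 the highest was Ube2c (101 ± 36 CPM per kb), within 1 SD of Ncapd2 (96.9 ± 4.18).

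All 10 spindle genes rose (medians 2.30 and 1.93) with no overlap between untreated and 5-FU libraries at either time. Tpx2, which activates Aurora A and seeds spindle microtubules, was at 16.3, 34.9, 11.1 and 6.16 CPM in the untreated libraries, 108, 121, 125 and 90.1 at day 6 and 74.8, 82.1 and 114 (lowest, median and highest) at day 10. It rose by 2.70 ± 0.34 (adjusted p = 1.11e-05) and 2.35 ± 0.32 (adjusted p = 6.67e-05). Kif11, the motor that pushes spindle poles apart, was at 22.2, 62.4, 20.4 and 11.3 CPM in the untreated libraries, 111, 122, 122 and 101 at day 6 and 79.5, 93.7 and 112 (lowest, median and highest) at day 10, changes of 1.98 ± 0.34 (adjusted p = 0.000177) and 1.69 ± 0.32 (adjusted p = 0.000766). Its untreated libraries spread widely, replicate 2 being the highest. Kif2c, a microtubule depolymerase of the centromere, was at 4.19, 10.8, 7.41 and 1 CPM in the untreated libraries, 40.3, 58.7, 57.8 and 39.8 at day 6 and 35.8, 42.7 and 58.1 (lowest, median and highest) at day 10, with the largest change of the group, 3.10 ± 0.38 (adjusted p = 9.97e-06) and 2.95 ± 0.37 (adjusted p = 3.09e-05). Untreated replicate 4 held 7 reads of Kif2c and 2 of Hmmr, a spindle assembly factor, so the level in that library is known only roughly.

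Of the 4 anaphase genes, 3 rose. Cdc20, an activator of the anaphase-promoting complex, was at 17.8, 38, 18.9 and 12.5 CPM in the untreated libraries, 101, 111, 144 and 80.9 at day 6 and 82.6, 98.4 and 119.9 (lowest, median and highest) at day 10, changes of 2.33 ± 0.27 (adjusted p = 5.07e-06) and 2.19 ± 0.25 (adjusted p = 1.77e-05). Ube2c, the enzyme that supplies ubiquitin to that complex (gene 68612, chromosome 2, 164769929 to 164772902, plus strand), was at 4.19, 30.4, 8.15 and 0.716 CPM in the untreated libraries, 102, 97.4, 128 and 47.8 at day 6 and 53.5, 76.9 and 111 (lowest, median and highest) at day 10. The untreated libraries ranged from 5 reads in replicate 4 to the highest in replicate 2, all under the lowest 5-FU library, and the changes were 3.13 ± 0.59 (adjusted p = 0.000390) and 2.91 ± 0.56 (adjusted p = 0.000907). Espl1, which encodes separase, the protease that cuts cohesin (gene 105988, chromosome 15, 102296252 to 102324357, plus strand), was at 20.3, 58.9, 17.4 and 10.3 CPM in the untreated libraries, 178, 190.3, 182 and 176 at day 6 and 89.5, 112 and 157 (lowest, median and highest) at day 10, changes of 2.77 ± 0.36 (adjusted p = 1.75e-05) and 2.17 ± 0.34 (adjusted p = 0.000200).

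Pttg1, which encodes securin, the inhibitor of separase (gene 30939, chromosome 11, 43420248 to 43426248, minus strand), was the gene that moved the other way. It stood at 7.29, 9.98, 11.5 and 8.88 CPM in the untreated libraries, 6.01, 6.92, 5.07 and 5.53 at day 6 and 7.44, 8.49 and 9.79 (lowest, median and highest) at day 10. All 4 day-6 libraries lay below all 4 untreated libraries, and it fell by 0.67 ± 0.19 (adjusted p = 0.00870) on the log2 scale. At day 10 the range lay within that of the untreated libraries. The day-6 call was lost with intron reads (log2 -0.46, adjusted p = 0.412) and with uncultured HSCs as control (-0.49, adjusted p = 0.0560). The call was also lost without the libraries in the fit that held more transcripts of other cells (-0.58, adjusted p = 0.0610). Of the Pttg1 reads 99.8% were unique in the deposited tables. Per kb of exon its level was 3.33 ± 0.448 CPM at day 6, the lowest of the 60 genes, and 5.33 ± 1.01 in untreated HSCs.

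The 8 cytokinesis genes rose at both times (medians 1.97 and 1.66). Prc1, which bundles the microtubules of the midzone, was at 28.8, 59.1, 18.5 and 10.6 CPM in the untreated libraries, 119.7, 149, 146 and 99 at day 6 and 75.6, 90.04 and 126 (lowest, median and highest) at day 10, changes of 2.14 ± 0.35 (adjusted p = 0.000127) and 1.71 ± 0.33 (adjusted p = 0.000892). Anln, the anillin scaffold of the contractile ring, was at 16.7, 36.8, 22.1 and 11 CPM in the untreated libraries, 86.8, 101, 108 and 94.7 at day 6 and 61.3, 69.3 and 84.5 (lowest, median and highest) at day 10. Both 5-FU groups lay above the untreated libraries, and Anln rose by 2.18 ± 0.25 (adjusted p = 4.48e-06) and 1.73 ± 0.23 (adjusted p = 5.35e-05). Ect2, the exchange factor that activates RhoA at the cleavage furrow, was at 8.37, 24.7, 12.6 and 5.16 CPM in the untreated libraries, 69.2, 90.6, 78.2 and 71.9 at day 6 and 48.1, 67.3 and 91.4 (lowest, median and highest) at day 10, changes of 2.62 ± 0.34 (adjusted p = 1.44e-05) and 2.46 ± 0.32 (adjusted p = 4.47e-05). The central spindle partners Kif23 and Racgap1 rose by 1.40 and 1.80 at day 6 and by 0.86 and 1.32 at day 10. With uncultured HSCs as control, Kif23 was not called at day 10 (log2 0.35, adjusted p = 0.145). Kif20a, Kif20b and Cit, 2 kinesins and a kinase of late cytokinesis, rose by 2.69, 1.74 and 1.75 at day 6.

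**Figure D3:**
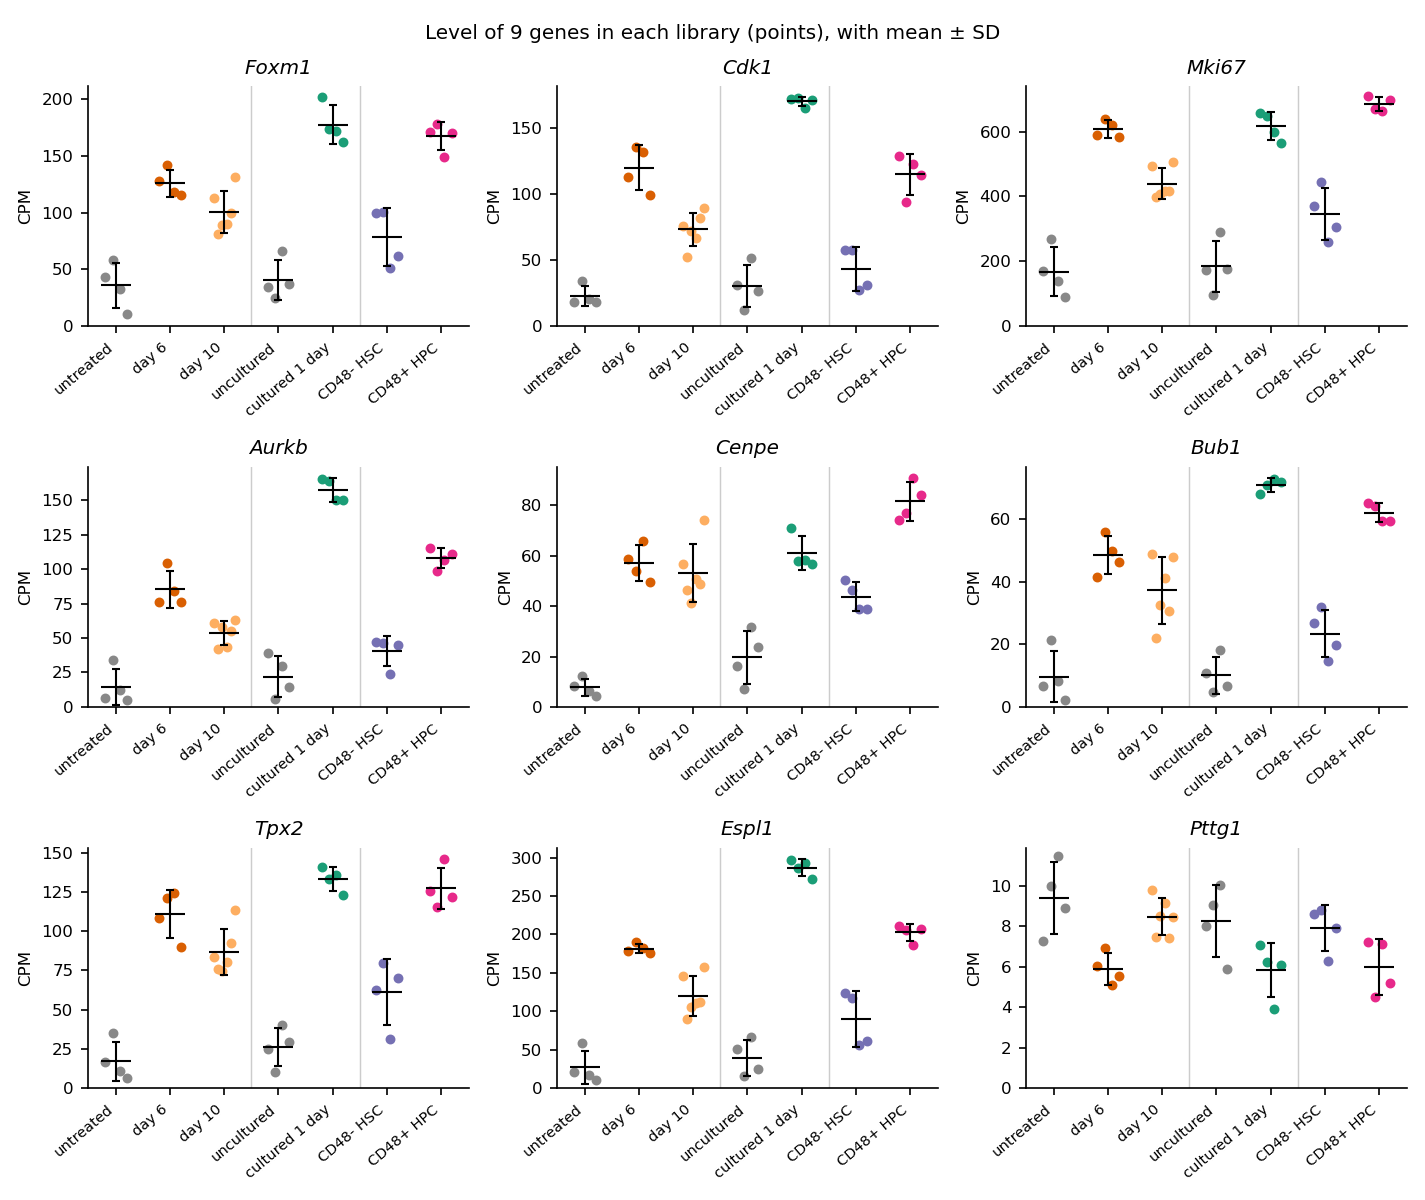
CPM (y axis, linear from 0) of 9 genes in every library (points, by group on the x axis), with the mean (bar) and SD. The first 8 are lowest in untreated or uncultured HSCs, while Pttg1 lies between 3.91 and 11.5 CPM in all groups.

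The 4 untreated libraries differed among themselves more than those of any 5-FU group. Replicate 2 held the highest untreated value for 59 of the 60 genes and replicate 4 the lowest for 47. The highest untreated library was above the lowest by a median of 3.57 times over the 60 genes, against 1.36 at day 6 and 1.63 at day 10. The uncultured HSCs, sorted from untreated mice in the culture experiment, spread in the same way: replicate 3 was highest for 55 genes and replicate 2 lowest for 55, with a median of 3.73 times between highest and lowest. Cultured HSCs and CD48+ HPCs had 1.21 and 1.19 times. Untreated replicate 2 and uncultured replicate 3 thus had the highest levels. Their myeloid granule sums were 40.9 CPM (others 31.9 to 1994) and 80.9 CPM (others 101 to 2320). Their erythroid sums were 2540 CPM (others 3290 to 6514) and 4974 CPM (others 135 to 3208). Their macrophage sums were 73.6 CPM (others 47.7 to 62.3) and 51.7 CPM (others 44.9 to 58.5). The part of other cells in the spread was not tested. The number of dividing cells among the 100 sorted was not given.

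Between day 6 and day 10 few of the genes passed the test. Of the 60, 9 were lower and 1 (Pttg1) was higher at day 10, where 15.9% of genes tested were lower and 14.7% higher, and the median log2 difference was -0.34. The shares called are near or below the background and are not read as a result about these genes. In direction, 56 of the 60 lay below 0, against 6655 of all 12886 genes tested (median -0.02). All day-10 libraries lay below all day-6 libraries for 17 of the 60, against 1564 of the 12886. The largest falls were those of Mybl2 (-1.09 ± 0.22, adjusted p = 0.00201), Pbk (-0.99 ± 0.24, adjusted p = 0.00575) and Spc24 (-0.94 ± 0.22, adjusted p = 0.00481). Mad2l1, Plk4 and Cdk1 fell by 0.75, 0.73 and 0.71, and Kif23, Smc2 and Bub3 by 0.54, 0.51 and 0.33. At the other end Pttg1 rose by 0.52 ± 0.18 (adjusted p = 0.0358), and the values of Cenpa and Cdc25b were 0.20 and 0.12, neither called. The cyclins Ccnb1 and Ccnb2 differed by -0.12 ± 0.27 and -0.03 ± 0.39, not called. Fitted on the day-6 and day-10 libraries alone, 30 of the 60 genes were lower and 1 higher, where 16.7% of genes tested were lower and 14.9% higher. Without day-10 replicate 6, the day-10 library highest for 41 genes, 17 were lower (18.6% of genes tested). Leaving out day-6 replicate 2 or 3 gave 5 and 6 lower (11.1% and 11.6% of genes tested). The calls of Bub3, Kif23 and Pttg1 were each lost when any of several single libraries was left out, and those of Mad2l1, Bub3 and Pttg1 with intron reads.

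Genes of S phase, when DNA is copied, were set beside them from a list of 20. All 20 rose at day 6 (median 1.49) and 18 at day 10 (median 0.68), and all 20 were lower at day 10 than at day 6 (median -0.81). Pcna, the sliding clamp of DNA polymerases, and Mcm2, a subunit of the replicative helicase, were lower by 0.77 and 0.75 on the log2 scale at day 10 than at day 6. A list of 76 other mitosis genes had 65 higher at day 6 (median 1.29), 56 higher at day 10 (0.84) and 24 lower at day 10 than at day 6 (-0.30). Of all genes tested, 25.7% were higher at day 6, 19.9% were higher at day 10 and 15.9% were lower at day 10 than at day 6. The difference between the lists was not tested.

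**Figure D4:**
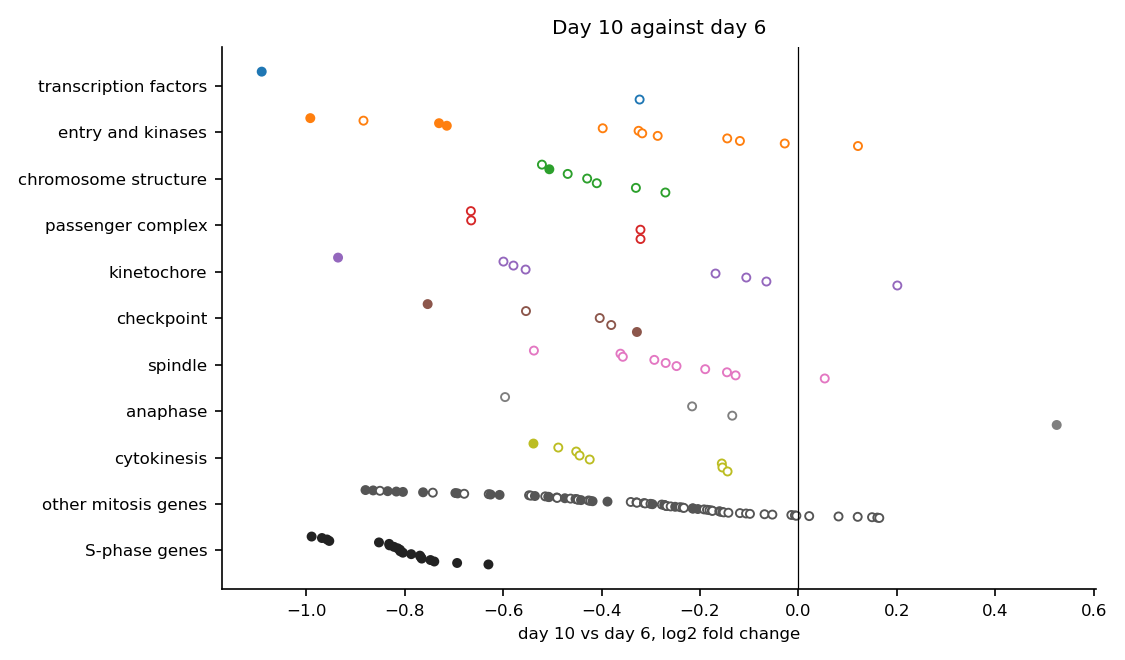
Log2 fold change between day 10 and day 6 (x axis) of the 60 genes by role, of 76 other mitosis genes and of 20 S-phase genes (y axis); filled points passed an adjusted p of 0.05. All 20 S-phase genes lie below -0.6, while the mitosis genes spread from -1.09 to 0.52.

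After 1 day in culture, 59 of the 60 genes were higher than in uncultured HSCs (33.8% of 12386 genes tested were higher), with a median log2 change of 2.17. The cultured libraries lay above all uncultured ones for 59 genes, against 30.9% of genes tested. Pttg1 was not called, at 8, 9.03, 10.03 and 5.87 CPM in the uncultured and 7.09, 6.25, 3.91 and 6.08 in the cultured libraries (log2 -0.47 ± 0.26, adjusted p = 0.135). The medians by role were 2.76 for the transcription factors, 2.23 for entry regulators, 2.04 for chromosome structure, 2.53 for the passenger complex and 1.96 for the kinetochore. They were 2.03 for the checkpoint, 2.18 for the spindle, 1.97 for anaphase and 1.76 for cytokinesis.

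The largest rise was that of Pbk, at 7.29, 1.18, 9.13 and 4.45 CPM in the uncultured and 59.6, 61.5, 59.6 and 51.6 in the cultured libraries, a change of 3.43 ± 0.33 (adjusted p = 1.27e-06). Mybl2 followed at 31.5, 14.2, 29.1 and 13.7 CPM in the uncultured and 239, 203, 232 and 221 in the cultured libraries. The cultured libraries were the highest of all 30 for Mybl2, and it rose by 3.37 ± 0.22 (adjusted p = 5.23e-08). Nuf2, of the Ndc80 complex, was at 4.62, 0.888, 10.03 and 5.56 CPM in the uncultured and 46, 43.5, 46.9 and 45 in the cultured libraries, a change of 3.12 ± 0.36 (adjusted p = 7.90e-06), and uncultured replicate 2 held 6 reads of it. At the other end Cenpa was at 28.6, 18.5, 51.4 and 34.6 CPM in the uncultured and 78.3, 73.7, 72.5 and 58 in the cultured libraries. Its cultured libraries were just above the highest uncultured one, a change of 1.11 ± 0.23 (adjusted p = 0.000775). Cdc25b was at 36.1, 13.6, 75.2 and 66.8 CPM in the uncultured and 128, 108, 94.6 and 87.8 in the cultured libraries, a change of 1.16 ± 0.35 (adjusted p = 0.0108). Ect2 was at 27.4, 8.44, 35.3 and 28.6 CPM in the uncultured and 54.8, 60.5, 54.4 and 53.6 in the cultured libraries. These cultured values were close to each other and well above the uncultured ones, and Ect2 rose by 1.19 ± 0.28 (adjusted p = 0.00229).

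Of the kinases, Cdk1 was at 31.1, 12.1, 51.4 and 26.2 CPM in the uncultured and 171, 173, 165 and 171 in the cultured libraries, a change of 2.52 ± 0.28 (adjusted p = 4.72e-06). Aurkb was at 38.9, 5.63, 29.7 and 14.1 CPM in the uncultured and 166, 164, 150.1 and 149.8 in the cultured libraries, a change of 2.87 ± 0.36 (adjusted p = 1.46e-05). The 4 cultured libraries of each lay within a narrow range. Espl1 was at 50.2, 15.8, 66 and 24.1 CPM in the uncultured and 297, 287, 293 and 272 in the cultured libraries. Its transcript was 7.5 times higher in culture (2.91 ± 0.31, adjusted p = 3.85e-06), while the transcript of its inhibitor securin was not called in this fit. Pttg1 was lower in culture with all 30 libraries in 1 fit (log2 -0.49, adjusted p = 0.0444) and with untreated HSCs as control (-0.68, adjusted p = 0.00629). Mki67 was at 174, 95.8, 289.8 and 177 CPM in the uncultured and 658, 649, 598 and 566 in the cultured libraries, a change of 1.77 ± 0.23 (adjusted p = 2.17e-05). Among the genes called in culture, Cdc25c, another Cdk1-activating phosphatase, was at 4.09, 0.148, 13 and 12.4 CPM in the uncultured and 31.3, 27.2, 21.9 and 22.1 in the cultured libraries and was not called by DESeq2 (adjusted p = 0.0802). All 20 S-phase genes rose too (median 1.85), as did 71 of the 76 other mitosis genes (median 1.67). Of 13 HSC genes 10 were lower in culture and 2 higher, and of 7 macrophage genes tested 4 were lower and 1 higher. Among all 12386 genes tested, 4182 were lower and 4187 higher in culture. The macrophage sums were 28.8 to 35.8 CPM against 44.9 to 58.5 in uncultured HSCs, and their part was not tested.

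The change in culture and the change at day 6 share no library, so their difference could be tested gene by gene. Of the 60 genes, 3 changed more in culture and 3 less (7.08% and 9.15% of 13229 genes tested), near or below the background, and the median difference was -0.02. Those with the larger change in culture were Spc25 (difference 1.34 ± 0.43, adjusted p = 0.0351), Mybl2 (1.15 ± 0.37, adjusted p = 0.0384) and Bub3 (0.50 ± 0.17, adjusted p = 0.0466). Those with the smaller change were Ect2 (-1.46 ± 0.48, adjusted p = 0.0438), Cenpe (-1.25 ± 0.42, adjusted p = 0.0475) and Cenpa (-1.09 ± 0.35, adjusted p = 0.0377). All 6 adjusted p-values lay close under the threshold, and the count fell to 0 without day-6 replicate 1, uncultured replicate 4, cultured replicate 3 or cultured replicate 4. It rose to 8 without untreated replicate 2. With unique exon reads the difference of Mybl2 was no longer called (0.89, adjusted p = 0.127), and with intron reads none of the 6 was.

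**Figure D5:**
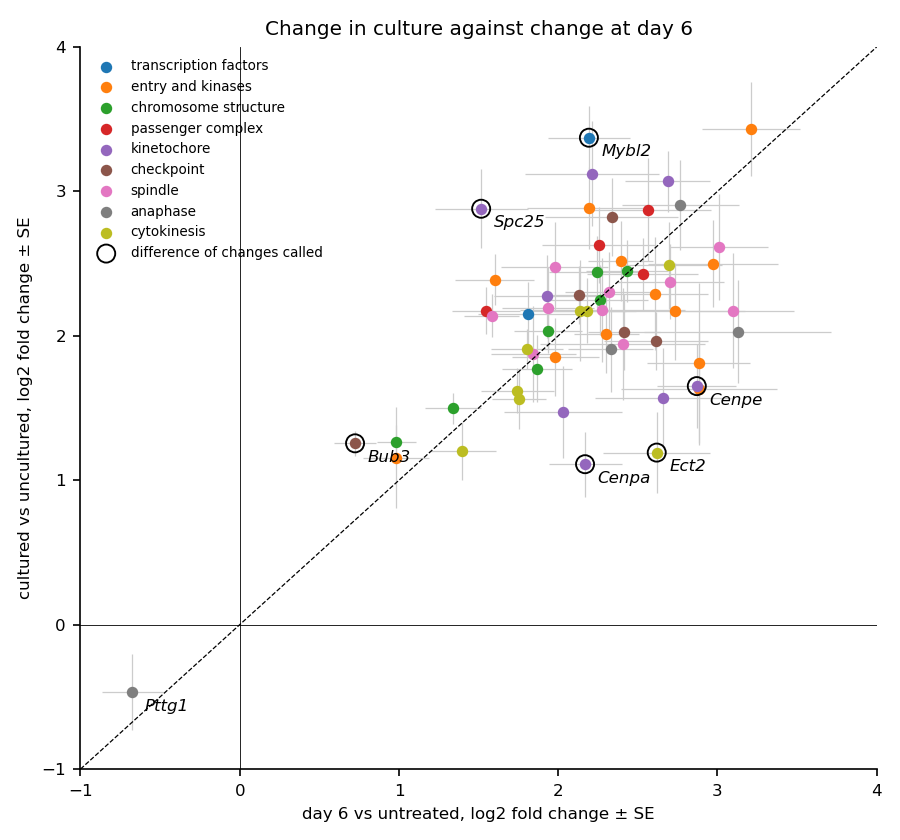
Log2 fold change ± SE in culture (y axis) against that at day 6 (x axis), 1 point per gene, coloured by role, with the line of equal change dashed. Rings mark the 6 genes whose difference passed an adjusted p of 0.05, with Mybl2, Spc25 and Bub3 above the line and Cenpe, Cenpa and Ect2 below it.

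At day 10 after 5-FU, 59 of the 60 genes were higher in CD48+ HPCs than in CD48- HSCs (14% of 12719 genes tested were higher), with a median log2 difference of 1.15. All 4 HPC libraries were above all 4 HSC libraries for 58 genes, against 13.5% of genes tested, and the exceptions were Cenpa and Pttg1. The largest differences were those of Mybl2, Plk1 and Pbk. Mybl2 was at 27.1, 48, 22.1 and 32.3 CPM in the CD48- HSCs and 136, 97.7, 116 and 99 in the CD48+ HPCs, a difference of 1.80 ± 0.21 (adjusted p = 0.000234). Plk1 was at 53.8, 48, 26.9 and 29 CPM in the CD48- HSCs and 122, 110.1, 119 and 130.3 in the CD48+ HPCs, a difference of 1.61 ± 0.20 (adjusted p = 0.000307). Pbk was at 12.7, 13.7, 6.76 and 10.3 CPM in the CD48- HSCs and 32.1, 29, 40.2 and 30.02 in the CD48+ HPCs. For each of these the HPC libraries were clear of the HSC libraries, and for Pbk the difference was 1.60 ± 0.21 (adjusted p = 0.000443).

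The smallest differences were those of Pttg1, Cenpa and Knstrn, a kinetochore and spindle protein. Pttg1 was at 8.61, 8.78, 6.29 and 7.9 CPM in the CD48- HSCs and 7.22, 4.49, 7.14 and 5.17 in the CD48+ HPCs, not called (log2 -0.39 ± 0.25, adjusted p = 0.270). Cenpa was at 93.7, 103, 74.7 and 55.5 CPM in the CD48- HSCs and 107, 131, 97.9 and 137 in the CD48+ HPCs. Its highest HSC library was above the lowest HPC library, and its call (log2 0.54 ± 0.18, adjusted p = 0.0429) was lost when any of 6 of the 8 libraries was left out, with adjusted p up to 0.112. Knstrn was at 43.6, 45.3, 23.1 and 32.3 CPM in the CD48- HSCs and 54.5, 57.9, 56.1 and 54 in the CD48+ HPCs, a difference of 0.63 ± 0.18 (adjusted p = 0.0233) that was lost without HSC replicate 4 (adjusted p = 0.0533) or without HPC replicate 1 (0.0519).

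The spans of the differences are given by role, and roles were not tested against each other. The spindle genes spanned 1.07 to 1.28 on the log2 scale, the passenger complex 1.07 to 1.41 and cytokinesis 0.71 to 1.27. Entry regulators and kinases spanned 0.80 to 1.61, chromosome structure 0.71 to 1.33, the kinetochore 0.54 to 1.47 and the checkpoint 0.70 to 1.41. The transcription factors spanned 1.10 to 1.80, and the anaphase genes, with Pttg1 among them, -0.39 to 1.56. Mki67 was at 372, 445, 259.8 and 307 CPM in the CD48- HSCs and 710.3, 671, 664 and 699 in the CD48+ HPCs, a difference of 1.00 ± 0.14 (adjusted p = 0.000652). Cdk1 was at 57.8, 57.1, 27.2 and 30.9 CPM in the CD48- HSCs and 128, 93.4, 123 and 114 in the CD48+ HPCs, a difference of 1.41 ± 0.23 (adjusted p = 0.00143). HSC replicates 3 and 4 were the lower pair for Cdk1, and replicate 3 was lowest in its group for 53 of the 60 genes. Ube2c was at 75.1, 51.9, 39.3 and 43.8 CPM in the CD48- HSCs and 173, 133, 154 and 157 in the CD48+ HPCs, a difference of 1.56 ± 0.18 (adjusted p = 0.000198). Espl1 was at 124, 117, 56.5 and 61.1 CPM in the CD48- HSCs and 211, 206, 187 and 208 in the CD48+ HPCs, a difference of 1.18 ± 0.23 (adjusted p = 0.00351). HSC replicate 3 was also the library with an erythroid sum of 9584 CPM, and its part in the low values was not tested. Without those of the 8 libraries with more transcripts of other cells that were in this comparison, 57 genes were still called. Cenpa and Knstrn were not among them. With intron reads 46 genes were higher (6.45% of genes tested), and the 13 that lost their call included Plk1 (1.10, adjusted p = 0.123) and Pbk (1.46, adjusted p = 0.131). With all 30 libraries in 1 fit, Ccnb2, Cenpa and Knstrn were not called. Of 13 macrophage genes, 8 were higher in HPCs (median log2 1.89), with sums of 192 to 1422 CPM against 93.0 to 401 in the CD48- HSCs. Of 5 myeloid granule genes tested, 4 were higher in HPCs (sums 128 to 486 against 40.9 to 106 CPM), and of 13 HSC genes 11 were lower (1592 of all 12719 genes tested were lower). The part of these transcripts was not tested. All 20 S-phase genes were higher in HPCs (median 1.28), as were 63 of the 76 other mitosis genes (median 0.83). The CD48- HSCs of this experiment, with the same gate and time as the day-10 HSCs of the 5-FU experiment, summed to 3376 ± 810 CPM over the 60 genes (SD, n = 4) against 4453 ± 658 (n = 6) there, with no test between experiments.

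Not all reads of these genes were unique to 1 place, which makes some levels less certain. The deposited tables list as unique at least 95% of exon reads for 49 of the 60 genes. For Nek2, Plk4 and Kif11, entered both at their main place and at an alternate one, it was under 1%, and the entries were summed. Of the rest, Prc1 had 22.4% unique, Ccnb1 47.3%, Mybl2 57.1% and Kif20a 57.7%. With unique reads alone Prc1, Ccnb1, Mybl2 and Kif20a were called in the same direction at day 6, at day 10, in culture and in the CD48 comparison. The larger change of Mybl2 in culture than at day 6 was not called with unique reads.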

How the data were processed

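The deposited tables hold counts of reads per gene, as total exon, unique exon and total intron reads per the file headers, from total RNA made into Nextera XT libraries. Of exon and intron reads together, introns held 67.8 to 69.6% in untreated, 60.6 to 62.4% in day-6 and 62.1 to 66.0% in day-10 HSCs. They held 69.6 to 70.8% in uncultured, 62.3 to 62.7% in cultured and 65.6 to 68.4% in CD48- HSCs, and 62.2 to 65.2% in HPCs. The part of this shift in the changes was not tested. The authors mapped to mm10, per the submitters' processing notes, while aligner and counter were not given in the sources used here. Total exon reads were summed over the 48737 entries per gene identifier, giving 46113 genes, and 3 members had 2 entries. edgeR 4.0.16 in R 4.3.3 was fitted once per experiment (filterByExpr, TMM, glmQLFit and glmQLFTest on group means, adjusted p under 0.05), and the SE is the log2 change over the square root of F. CPM use TMM-scaled sizes over all 30 libraries. Every pair of replicates differed by more than sampling noise (chi-square over degrees of freedom, 2.44 to 43.3). The fits were tested on simulated data. Alternatives were DESeq2 1.42.0, RLE factors, no filter, unique or intron reads, other sample sets and controls, a replicate block and each library left out. Leaving out 8 libraries with more transcripts of other cells was added after seeing the data. Each fit then lost only those of the 8 among its own libraries. Promoter windows came from RefSeq (GRCm38.p6). Python 3.11.15 with pandas 2.3.3, NumPy 2.4.6 and matplotlib 3.10.9 made the tables and figures. Members and lists were chosen with earlier results of these data known. Named genes were 27 core members and, in each comparison, the 3 with the largest and the 3 with the smallest change, and any other is given as an example of its role or as an exception.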

Additional observations from a re-analysis of the deposited data

Results flagged for a closer look

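Among 27 core genes in 7 groups (189 sets of libraries), 8 had 1 library far from the others of its group, where chance flags about 1 in 20. In untreated replicate 2, Cdk1 was at 34.4 CPM (18.2 to 20.4 in the other 3) and Ndc80 at 9.00 CPM (2.44 to 3.41). In day-10 replicate 6, Aurka was at 47.0 CPM (31.9 to 36.8 in the other 5). Aurkb was low in CD48- HSC replicate 3, at 24.1 CPM (45.1 to 47.0). In cultured HSCs, Birc5 was low in replicate 4 at 90.2 CPM (111 to 114), Cenpe high in replicate 1 at 71.0 CPM (56.8 to 58.3) and Ect2 high in replicate 2 at 60.5 CPM (53.6 to 54.8). Bub3 was high in HPC replicate 1 at 111 CPM (89.6 to 93.0).

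In edgeR's test of day 10 against day 6, the change from untreated HSCs differed for 10 of the 60 genes (9 lower and 1 higher). Of all genes tested, 15.9% were lower and 14.7% higher. Among core genes Mybl2 differed by at least 1 on the log2 scale (log2 -1.09, adjusted p = 0.00201), with 0 of 6 day-10 libraries above the lowest day-6 library. By the same tool, the change in culture differed from that at day 6 for 6 of the 60 genes (3 larger and 3 smaller). Of all genes tested, 7.08% were called larger and 9.15% smaller. The counts for both differences are near or below the background and are not read as a result about these genes. Among core genes the change in culture was larger for Mybl2 (log2 1.15, adjusted p = 0.0384, and 0.127 with unique exon reads). It was smaller for Cenpe (log2 -1.25, adjusted p = 0.0475) and Ect2 (log2 -1.46, adjusted p = 0.0438).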

How the results depend on the processing

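No change of a member reversed its direction where it was called. At day 6, 55 to 60 genes were called over all settings, at day 10 49 to 59, in culture 56 to 60 and in the CD48 comparison 46 to 59. The lowest numbers came with intron reads, except in culture, where unique exon reads gave 56 of 57 genes tested and intron reads 59. For day 10 against day 6, where 10 were called, the 2 groups alone gave 31. Leaving out the libraries with more transcripts of other cells gave 6, and leaving out 1 library gave 6 to 17. For the culture effect minus the day-6 effect, where 6 were called, no filter on low counts gave 3 and intron reads 1. Leaving out the libraries with more transcripts of other cells gave 1 there, and leaving out 1 library 0 to 8. With the replicate number as a block the counts were 60 at day 6, 58 at day 10, 9 for day 10 against day 6, 59 in culture, 59 in the CD48 comparison and 2 for culture minus day 6. Same-numbered libraries did not deviate together (correlations -0.210 to 0.113), so the numbers were not read as pairs. The causes were not tested. Libraries of 100 cells and levels of a few reads in untreated replicate 4 and uncultured replicate 2 limit the precision of single genes.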
